A study of Homo sapiens with 6 samples.

Results

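The 30 genes described here are known targets or close partners of the tumour suppressor p53, chosen as a named list and found by symbol among the 60664 genes counted in 6 RNA-seq libraries. All 30 were found. They were sorted by role into 4 genes of p53 control and feedback, 10 of cell cycle arrest and growth control, 4 of DNA repair and nucleotide supply, 5 of metabolism and redox balance, and 7 of cell death and survival.

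The libraries came from D283 Med, an established human medulloblastoma line of Group 3 with an amplified MYC gene. In 3 libraries (KD) the cells had been transfected with an LNA GapmeR, an antisense oligonucleotide that recruits RNase H, against the long non-coding RNA lncMB3. In the other 3 (SCR) they had received a scrambled GapmeR. Both groups were thus transfected cells of 1 line, and an effect of losing lncMB3 cannot be told apart from other effects of that oligonucleotide. The labels do not give the time after transfection, and nothing in them states separate cultures for libraries of 1 group. P-values therefore cover the spread from library to library, possibly technical only. The level of lncMB3 itself was not analysed here, so directions rest on the group labels.

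The p53 protein is a transcription factor that is held at low levels by MDM2 and MDM4 and accumulates after DNA damage, nucleolar stress or oncogene activity. Its targets stop the cell cycle, repair DNA, adjust metabolism or start apoptosis, and some of them, MDM2 first among these, switch p53 off again. Many of these genes answer to other factors as well: GADD45B to NF-kappaB and TGF-beta signals, CCNG2 and BTG1 to FOXO factors, and GADD45A to several stress pathways. A change in 1 of them does not by itself report on p53.

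Total counts per library ran from 7765826 (KD library 1) to 20035834 (SCR library 2), and KD library 1 gave the least precise counts of low genes. Of the markers fixed for this line, OTX2, CRX, NEUROD1, MYC, IMPG2, GABRA5 and NPR3 passed the low-count filter, while EOMES averaged 0.139 CPM in KD and 0.127 CPM in SCR libraries. The 8 markers summed to 2715 to 2798 CPM in KD and 2881 to 3123 CPM in SCR libraries, a sum made up mostly of MYC, OTX2 and NPR3. Of the 7 tested, 4 fell and 1 rose at an edgeR adjusted p of 0.05, which is 71.4% called against 31.7% of all genes tested. The log2 changes were -1.07 for NEUROD1, -0.59 for IMPG2, -0.44 for CRX, -0.28 for OTX2 and 0.41 for GABRA5 (edgeR adjusted p from 3.26e-05 to 0.0202). Without SCR library 3, 3 of the 7 were called, 2 lower and 1 higher. Of 17 markers of other cell types, 5 (COL3A1, KRT14, MBP, CD3E and MOG) were at 0 in every library, and the 17 summed to 16.8 to 19.5 CPM in KD and 22.1 to 24.9 CPM in SCR libraries. Most of that sum was the collagen gene COL1A1, at 15.8 CPM in KD and 19.99 CPM in SCR libraries. COL1A1 and DCN passed by edgeR (adjusted p = 0.0315 and 0.0335, both lower in KD), and DESeq2 called 0 markers of this list. The part of any change in these markers in the results was not tested.

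Of the 30 genes, 28 passed the low-count filter and entered the test over all genes. SPATA18, which acts in mitochondrial quality control, had 0 counts in all 6 libraries, and a count of 0 allows up to 3 counts per library. GADD45G, the third GADD45 stress sensor, had 3, 4 and 6 counts in KD libraries 1 to 3, against 9, 30 and 20 counts in SCR libraries 1 to 3. Each KD count was below each SCR count. GADD45G failed the low-count filter with all 6 libraries, and it passed in 5 of the 6 fits with 1 library left out. There its log2 change ran from -2.15 to -1.62 and it was called in 4 of the 5 (edgeR adjusted p from 0.00312 to 0.051). These fits rest on 3 to 6 reads per KD library, so the size of the difference is poorly known.

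Levels per kilobase of exon (RPKM) differed widely among the genes, and 27 of the 30 averaged at least 1 RPKM in both groups. The length used merges all annotated exons, for example 1442 bases for TRIAP1 and 9127 bases for RPS27L. The order of genes thus depends in part on the annotation. CCNG1, a cyclin-like partner of protein phosphatase 2A, had the highest level, 74.5 RPKM in KD and 79.4 RPKM in SCR libraries. TRIAP1, a small mitochondrial protein that limits apoptosis, came next with 55.5 RPKM in KD and 33.1 RPKM in SCR libraries. Next in the SCR order was TIGAR, a fructose-bisphosphatase that lowers glycolytic flux, with 27.1 RPKM in KD and 26.1 RPKM in SCR libraries. At the low end, PERP, a desmosome protein linked to apoptosis, had 0.217 RPKM in KD and 0.300 RPKM in SCR libraries. PERP is typical of epithelia, and its libraries overlapped here.

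**Figure D1:**
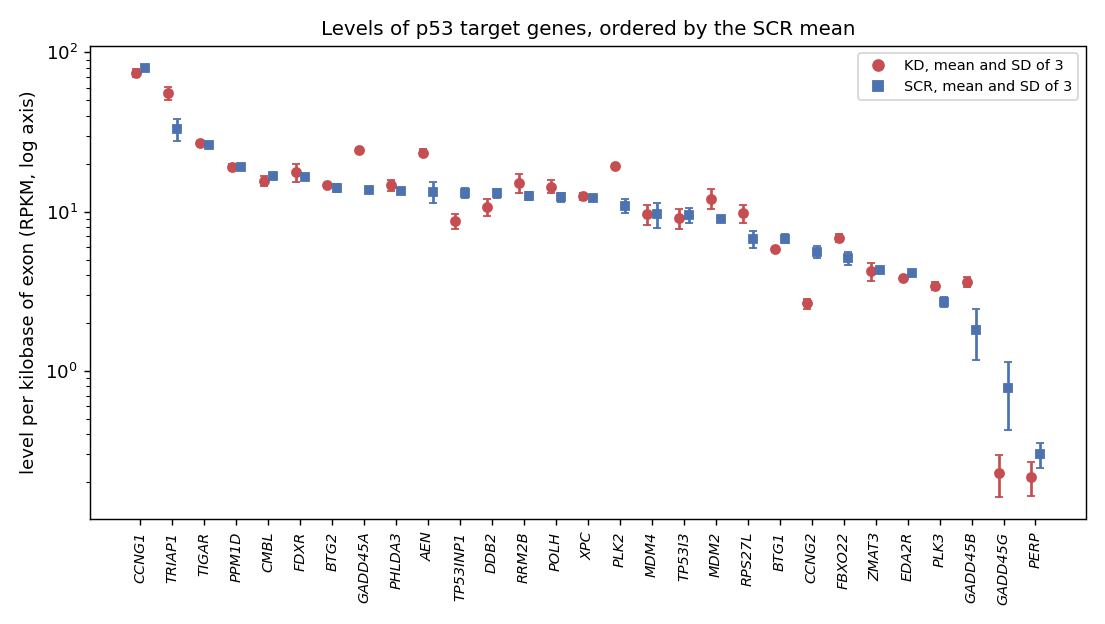
Mean level per kilobase of exon (RPKM, log axis) of the p53 target genes in KD (circles) and SCR libraries (squares), with the SD of 3 libraries, ordered by the SCR mean; SPATA18 is at 0 and not drawn. CCNG1 is highest in both groups, and GADD45A, AEN and PLK2 stand above their SCR level while TP53INP1 and CCNG2 stand below it.

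Of the 28 genes tested, 12 passed an edgeR adjusted p of 0.05, 9 of them higher and 3 lower in KD libraries, where 31.7% of all 14673 tested genes passed. The share of these genes that passed was 42.9%, and the list itself was not tested against other genes. Among all genes the calls split evenly, with 15.9% higher and 15.9% lower. The median log2 change was 0.06 over the 28 genes and 0.00028 over all tested genes. With upper-quartile scaling the 28 genes gave 8 rises and 4 falls, and these medians were 0.0048 and -0.058. The 2 groups did not overlap in 17 of the 28 genes, against 46% of all tested genes. Of the 12 called genes, 5 rose and 2 fell by at least 1.5-fold. By role, the calls were 2 of 4 control genes, 5 of 9 arrest genes and 1 of 4 repair genes. Metabolic genes gave 0 of 4, and death and survival genes 4 of 7. With 4 to 9 tested genes per role, these counts are too small to compare the roles. In 11 of the 12 called genes, SCR library 1 was the SCR library nearest to the KD mean. That order was not particular to these genes. On the first principal component of log2 CPM over all tested genes, SCR libraries 1 to 3 stood at -14.5, -30.7 and -35.4. KD libraries 1 to 3 stood there at 31.7, 20.8 and 28.0.

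**Figure D2:**
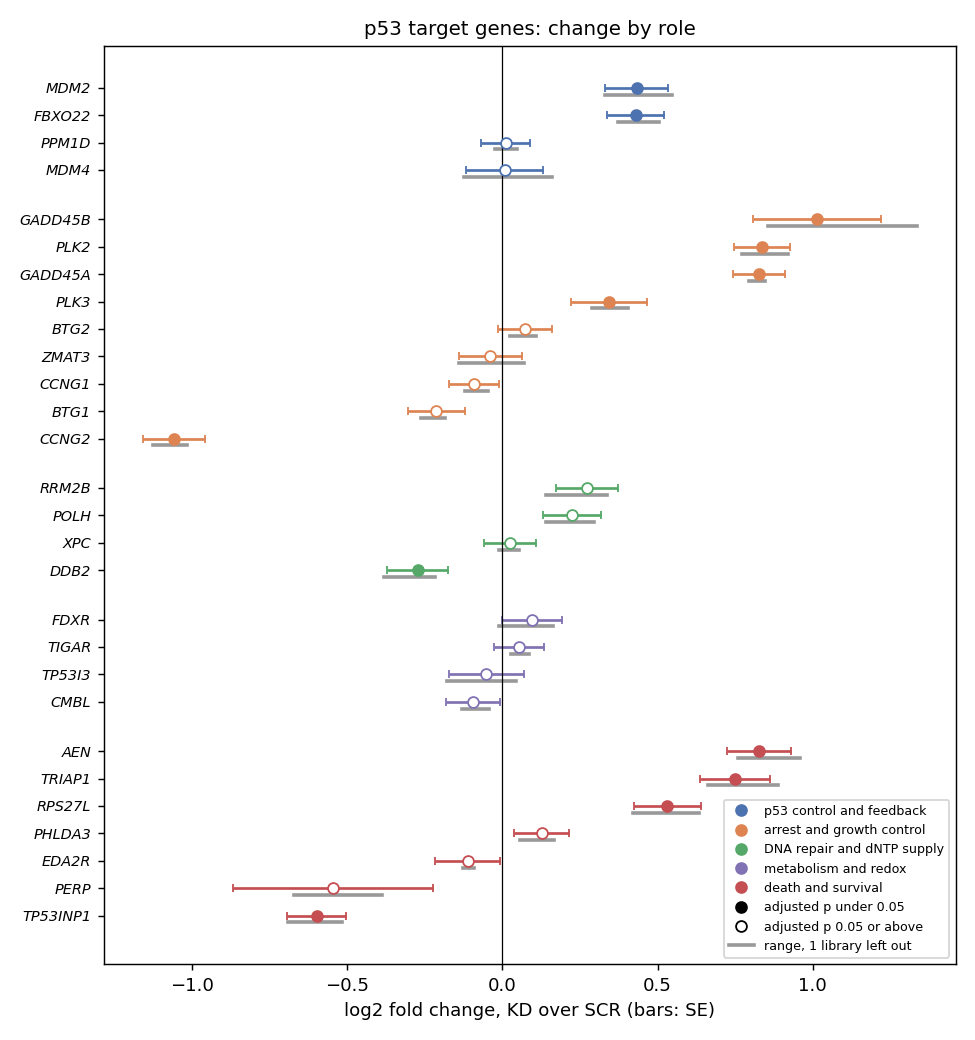
Log2 fold change, KD over SCR, of the 28 tested genes by role, with SE bars; filled points passed an adjusted p of 0.05 and grey bars give the range when 1 library is left out. GADD45B, PLK2, GADD45A, AEN and TRIAP1 lie farthest to the right and CCNG2 and TP53INP1 farthest to the left among the called genes, while the metabolic genes sit near 0.

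Among the control genes, MDM2 rose and its partner MDM4 did not pass the test. MDM2 (chromosome 12, 68808176 to 68850686, GRCh38) encodes the ubiquitin ligase that marks p53 for degradation, and it is itself a p53 target. It had 166, 135 and 180 CPM in KD libraries 1 to 3, against 124, 115 and 117 CPM in SCR libraries 1 to 3. KD library 2 was the lowest of its group but still above every SCR library. The change was 1.35-fold (log2 change 0.43 ± 0.10, SE; edgeR adjusted p = 0.00555). A processed pseudogene annotated within MDM2 on the same strand had 8.22 CPM in KD and 6.53 CPM in SCR libraries. How RSEM divided reads between them is not known, and its part in the change was not tested.

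FBXO22 (chromosome 15, 75903859 to 75942510), a substrate receptor of a ubiquitin ligase that acts on p53 bound to a histone demethylase, rose to a like extent. It had 76.4, 81.4 and 86.2 CPM in KD libraries, against 66.4, 59.6 and 55.7 CPM in SCR libraries. The groups did not overlap (1.35-fold, edgeR adjusted p = 0.00301). MDM4, which binds p53 and blocks its activation domain, had 95.5, 99.8 and 123 CPM in KD libraries, against 89.6, 100.8 and 127 CPM in SCR libraries. Its libraries overlapped, and the log2 change of 0.0077 had an approximate 95% interval of -0.24 to 0.25. PPM1D, the phosphatase WIP1 that removes activating phosphates from p53 and its kinases, averaged 96.8 ± 4.09 CPM in KD and 95.99 ± 1.76 CPM in SCR libraries (SD, n = 3 each), with an interval of -0.14 to 0.17.

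Arrest genes gave 4 rises and 1 fall. The GADD45 proteins bind PCNA, CDK1 and MAP kinase kinase kinases and act in arrest, repair and stress signalling. GADD45A (chromosome 1, 67685061 to 67688338) had 49.6, 52.5 and 49.1 CPM in KD libraries, against 28.98, 28.3 and 27.9 CPM in SCR libraries. The libraries of each group lay close together and far from the other group (1.77-fold, log2 change 0.83 ± 0.08, edgeR adjusted p = 3.59e-05). GADD45B (chromosome 19, 2476122 to 2478259) was expressed at a lower level and had 7.80, 8.29 and 7.19 CPM in KD libraries, against 5.44, 3.03 and 3.13 CPM in SCR libraries. SCR library 1 stood between the other SCR libraries and the KD libraries. The change was 2.02-fold (edgeR adjusted p = 0.00241), and without SCR library 1 the log2 change was 1.34 in place of 1.01. The counts of GADD45G, given above, ran the other way.

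PLK2 and PLK3 are polo-like kinases that respond to stress, unlike the mitotic kinase PLK1. PLK2 (chromosome 5, 58453982 to 58460260) had 91.2, 92.5 and 95.1 CPM in KD libraries, against 58.0, 50.9 and 47.6 CPM in SCR libraries. The groups were well apart (1.78-fold, log2 change 0.84 ± 0.09, edgeR adjusted p = 4.49e-05). PLK3 had 11.2, 11.8 and 12.6 CPM in KD libraries, against 9.07, 8.998 and 10.2 CPM in SCR libraries. Its libraries did not overlap, and the 1.27-fold rise was just past the threshold (edgeR adjusted p = 0.0428). The call of PLK3 was lost when any 1 of the 6 libraries was left out (edgeR adjusted p from 0.0514 to 0.161), with log2 changes of 0.29 to 0.40 in place of 0.34.

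CCNG2 (chromosome 4, 77157151 to 77433388), a cyclin-like protein that is raised when cells stop dividing, showed the largest fall of the 28 genes tested. It had 18.5, 21.3 and 19.8 CPM in KD libraries, against 37.5, 44.1 and 43.4 CPM in SCR libraries. The highest KD library lay far below the lowest SCR library (log2 change -1.06 ± 0.10, or 2.08-fold higher in SCR libraries, edgeR adjusted p = 3.14e-05). Its paralog CCNG1, a strong p53 target, was at 217, 241 and 234 CPM in KD libraries, against 243, 249.2 and 246 CPM in SCR libraries. The groups were apart by a small margin, and the log2 change of -0.09 did not pass the test (edgeR adjusted p = 0.41).

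BTG1 and BTG2, antiproliferative adaptors of the CCR4-NOT deadenylase, were not called. BTG1 had 27.6, 29.003 and 28.4 CPM in KD libraries, against 30.4, 34.0 and 34.2 CPM in SCR libraries, with no overlap (log2 change -0.21, edgeR adjusted p = 0.0889). It passed with upper-quartile scaling (edgeR adjusted p = 0.0384) and without SCR library 1 (0.0454). BTG2 averaged 40.7 ± 0.988 CPM in KD and 38.7 ± 2.26 CPM in SCR libraries. ZMAT3, an RNA-binding zinc finger protein induced by p53, averaged 40.8 ± 5.19 CPM in KD and 41.8 ± 1.80 CPM in SCR libraries (SD, n = 3 each).

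**Figure D3:**
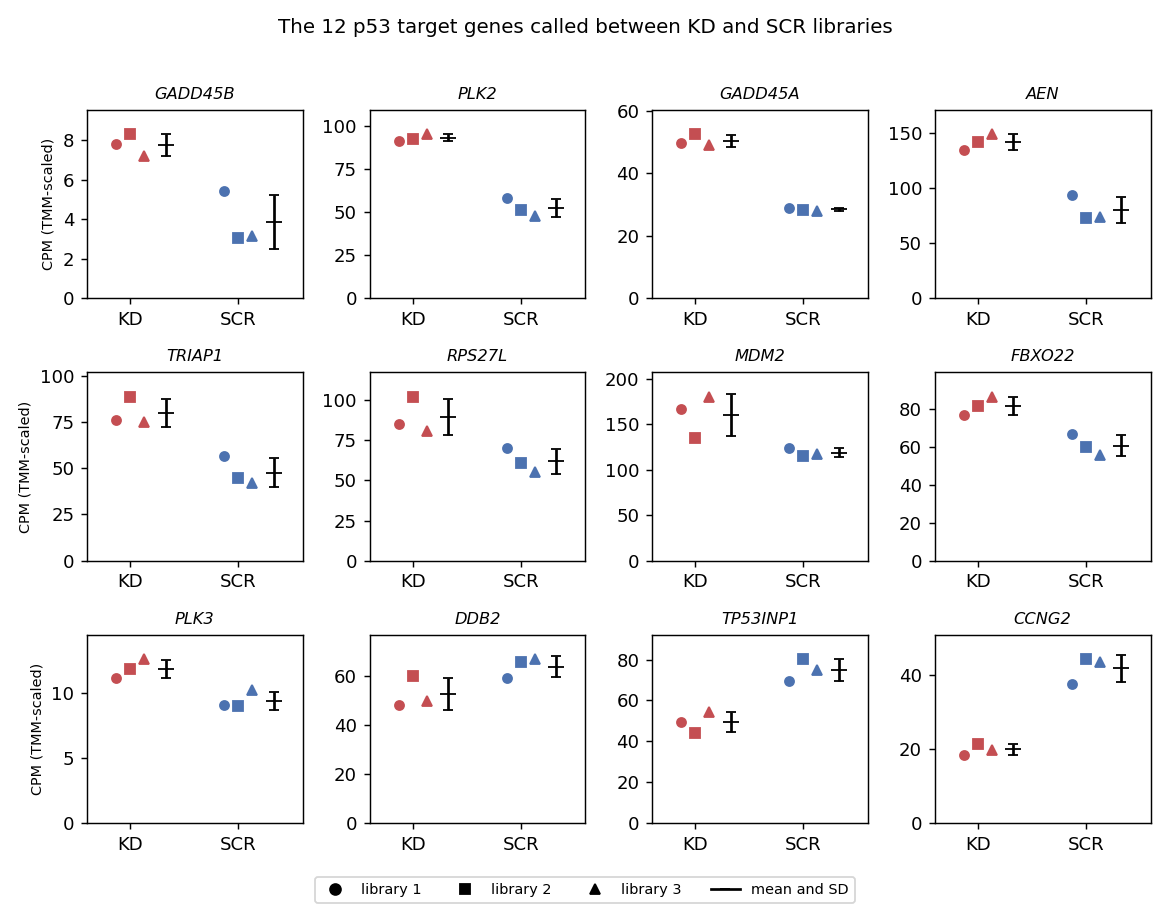
TMM-scaled CPM of the 12 called genes in each KD and SCR library, with a marker shape for each library and the mean and SD beside it; each vertical axis starts at 0. The groups overlap in DDB2 alone, and SCR library 1 (circle) is the control nearest to the KD libraries in all panels but that of PLK3.

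Repair genes gave 1 call. DDB2 recognises ultraviolet damage in chromatin and starts nucleotide excision repair. It had 48.4, 60.1 and 49.7 CPM in KD libraries, against 59.1, 66.0 and 66.9 CPM in SCR libraries. KD library 2 lay above SCR library 1, so the groups overlapped (log2 change -0.27 ± 0.10, edgeR adjusted p = 0.0473). The call was lost without SCR library 2 (edgeR adjusted p = 0.153), SCR library 3 (0.142), KD library 1 (0.179) or KD library 3 (0.152), with log2 changes of -0.25, -0.24, -0.22 and -0.23.

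XPC, the other damage sensor of that pathway, averaged 60.1 ± 3.23 CPM in KD and 58.9 ± 2.52 CPM in SCR libraries, and its log2 change had an interval of -0.14 to 0.19. LSM3 overlaps XPC by 426 bases on the other strand and had 74.0 CPM in KD and 52.4 CPM in SCR libraries. RRM2B, the ribonucleotide reductase subunit that supplies nucleotides outside S phase, had 77.7, 77.8 and 98.0 CPM in KD libraries, against 73.1, 71.7 and 65.6 CPM in SCR libraries. It missed the threshold (log2 change 0.27 ± 0.10, edgeR adjusted p = 0.0507), and KD library 3 stood above the other libraries. POLH, the polymerase that copies past ultraviolet lesions, had 50.7, 46.2 and 55.7 CPM in KD libraries, against 45.1, 40.4 and 45.2 CPM in SCR libraries. Its groups did not overlap, but it was not called (log2 change 0.22, edgeR adjusted p = 0.0834). POLH overlaps GTPBP2 on the other strand over 10345 bases, and GTPBP2 had 37.4 CPM in KD and 47.2 CPM in SCR libraries. Whether the counting used strand is not stated, so reads of such pairs may not be told apart.

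The 4 measured metabolic genes gave 0 calls by edgeR, by DESeq2 or by limma-voom, 0 had an unadjusted edgeR p under 0.05, and in each the libraries of the groups overlapped. TIGAR had 105, 109 and 112 CPM in KD libraries, against 103, 110 and 102 CPM in SCR libraries. A protein-coding gene annotated over the whole of TIGAR on the same strand was at 50.3 CPM in KD and 35.3 CPM in SCR libraries, so the split of reads between them is uncertain. FDXR, the ferredoxin reductase of mitochondria, averaged 63.5 ± 7.997 CPM in KD and 59.7 ± 2.64 CPM in SCR libraries. TP53I3, a quinone reductase, averaged 21.001 ± 2.97 CPM in KD and 22.0 ± 2.48 CPM in SCR libraries. CMBL, a hydrolase, averaged 52.1 ± 3.79 CPM in KD and 55.4 ± 1.83 CPM in SCR libraries (SD, n = 3 each). The approximate 95% intervals of the log2 changes were -0.10 to 0.21 for TIGAR, -0.09 to 0.28 for FDXR, -0.29 to 0.18 for TP53I3 and -0.26 to 0.08 for CMBL.

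Death and survival genes gave 3 rises and 1 fall. AEN (chromosome 15, 88621296 to 88632282), a nuclease that p53 induces during apoptosis, had 134, 141 and 148 CPM in KD libraries, against 93.8, 72.5 and 73.3 CPM in SCR libraries. SCR library 1 was again the closest control, but the groups were well apart (1.77-fold, log2 change 0.83 ± 0.10, edgeR adjusted p = 0.000123). TRIAP1 (chromosome 12, 120443961 to 120446412) had 76.1, 88.7 and 75.1 CPM in KD libraries, against 56.5, 44.8 and 41.9 CPM in SCR libraries. It protects cells from death, so the 2 largest rises of this role were in a gene that promotes apoptosis and in one that limits it (1.68-fold for TRIAP1, edgeR adjusted p = 0.000383).

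RPS27L (chromosome 15, 63125872 to 63158021), a ribosomal protein paralog that binds MDM2, had 85.1, 102 and 80.7 CPM in KD libraries, against 70.1, 60.6 and 55.04 CPM in SCR libraries. The groups did not overlap (1.45-fold, edgeR adjusted p = 0.00251). RPS27, the abundant paralog with which RPS27L could share reads, averaged 1202 ± 262 CPM in KD and 1141 ± 66.8 CPM in SCR libraries (edgeR adjusted p = 0.678). KD library 2 had the highest level of both genes, 1505 CPM for RPS27. The call of RPS27L held without that library.

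TP53INP1, a stress protein that aids p53 phosphorylation and autophagy, fell. It had 49.6, 44.3 and 54.5 CPM in KD libraries, against 69.6, 80.1 and 74.8 CPM in SCR libraries. The groups were apart by a wide margin (log2 change -0.60 ± 0.10, or 1.51-fold higher in SCR libraries, edgeR adjusted p = 0.000574). NDUFAF6, annotated over all of TP53INP1 on the other strand, was at 40.1 CPM in KD and 34.2 CPM in SCR libraries.

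PHLDA3, an inhibitor of AKT, averaged 46.0 ± 3.65 CPM in KD and 42.3 ± 0.890 CPM in SCR libraries, and EDA2R, a receptor of the TNF family, 13.7 ± 0.388 CPM in KD and 14.8 ± 0.267 CPM in SCR libraries (SD, n = 3 each). Neither was called (edgeR adjusted p = 0.289 and 0.447), though neither overlapped between groups. PERP was measured at about 1 CPM and was not called (log2 change -0.54, or 1.46-fold higher in SCR libraries, edgeR adjusted p = 0.211). Its interval of -1.17 to 0.08 on the log2 scale includes both a fall of 1.5-fold and no change, so neither can be excluded at this depth.

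Sequence upstream of the start sites was examined next. RefSeq promoters (GRCh38.p14) were matched for 24 of the 30 genes. The 250 bases before each start were searched on both strands for the 20-base p53 consensus site, with the C and G of each core required and up to 2 other mismatches. Such a match stood before 0.308% of 27305 genes and before 2 of the 24, AEN and MDM2. The 24 were listed as known p53 targets, so a higher share than in all genes is not an independent result. Sites outside these 250 bases were not searched, so the other genes may hold sites elsewhere. In AEN it lay 34 to 15 bases before the start, and in MDM2 94 to 75 bases before the internal start in the first intron, whose transcripts p53 is known to induce. The gene counts do not separate MDM2 transcripts of the 2 promoters. The MDM2 sequence shown also holds the AP-1 motif TGANTCA at 118 to 112 bases before the start, clear of the p53 match. These 2 sequences are printed because AEN and MDM2 alone of the 24 genes had a p53 match by this rule within the bases searched. The search kept only the best match per start, so further sites, or sites with a changed core base, are not marked. The matches stand in capitals. The sequences are from chr15:88621220-88621339 and chr12:68808897-68809016, both plus strand.
AEN: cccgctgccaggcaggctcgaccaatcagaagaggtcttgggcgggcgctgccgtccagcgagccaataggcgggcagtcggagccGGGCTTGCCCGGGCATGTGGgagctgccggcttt
MDM2: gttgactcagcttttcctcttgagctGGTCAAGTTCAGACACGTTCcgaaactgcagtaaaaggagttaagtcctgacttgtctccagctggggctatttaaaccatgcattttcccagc

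The other motifs searched are given with their share of all genes, and the counts are too small for a comparison. The E-box CACGTG, which MYC and its partners bind, stood before 4 of the 24 genes and 7.73% of all genes. CCAAT stood before 13 of 24 and 37% of all genes, the ATF4 and C/EBP element TGATGNAA before 2 of 24 and 3.89%, and the forkhead motif TGTTTAC before 2 of 24 and 3.66%. The cyclic AMP element TGACGTCA stood before 1 of 24 (2.03% of all genes), its part TGACG, which lies within it, before 10 of 24 (24.9%), AP-1 TGANTCA before 3 of 24 (8.06%) and the heat shock motif GAANNTTC before 1 of 24 (7.05%). The E-box stood before CCNG2, which fell, GADD45B, which rose, EDA2R, which was not called, and GADD45G, which did not enter the fit of all 6 libraries. TGATGNAA stood before PLK3, which rose, and GADD45G. CCNG2, with the largest fall of the 28, and PLK3 are shown as examples with those motifs in capitals, from chr4:77157087-77157206 and chr1:44800227-44800376, both plus strand. A match is a stretch of letters and not evidence of binding.
CCNG2: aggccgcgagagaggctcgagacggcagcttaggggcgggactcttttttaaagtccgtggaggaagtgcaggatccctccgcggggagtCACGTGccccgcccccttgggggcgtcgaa
PLK3: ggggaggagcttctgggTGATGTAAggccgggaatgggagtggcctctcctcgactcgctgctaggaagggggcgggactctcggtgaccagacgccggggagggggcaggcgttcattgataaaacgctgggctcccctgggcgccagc

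Genes that control p53 were called in both directions, at a share near that of all tested genes. Of 37 tested regulators 9 rose and 5 fell, 37.8% in all, against 31.7% of all tested genes (median log2 change 0.06). MYBBP1A, a nucleolar protein that aids p53 acetylation, rose 1.57-fold to 90.4 ± 3.13 CPM in KD, against 57.6 ± 3.96 CPM in SCR libraries (edgeR adjusted p = 0.000166). PRMT5, an arginine methyltransferase, rose 1.41-fold, while TP53BP2, which directs p53 towards apoptotic genes, and TP73, a p53 family member, had log2 changes of -0.42 and -0.48 and fell (edgeR adjusted p = 0.00225 and 0.00268). The count of called regulators was 9 without SCR library 2 and 9 without SCR library 3.

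Other p53 targets gave 12 rises and 9 falls among 61 tested genes, and a median log2 change of 0.01. That is 34.4% called, near the 31.7% of all tested genes. With upper-quartile scaling they gave 9 rises and 14 falls, and all tested genes 1773 rises and 2803 falls in place of 2328 and 2329. CDKN1A, the p21 inhibitor of cyclin-dependent kinases and the best known arrest target, had 358, 342 and 365 CPM in KD libraries, against 311, 280 and 287 CPM in SCR libraries. Its groups did not overlap, and it rose 1.21-fold (edgeR adjusted p = 0.0178). That call was lost without SCR library 2, SCR library 3, KD library 1 or KD library 3 (edgeR adjusted p = 0.108, 0.0631, 0.0616 and 0.0789). SERTAD1 and HRAS each rose 1.51-fold. SUSD6 fell (log2 change -0.65, edgeR adjusted p = 0.00041), and SESN2, an inhibitor of mTORC1, was at 73.8 ± 8.06 CPM in KD and 144 ± 28.99 CPM in SCR libraries (log2 change -0.96, edgeR adjusted p = 0.000202). SESN2 is also held by the list of ATF4 stress genes. The count of called genes was 9 without SCR library 2, 12 without SCR library 3 and 13 without KD library 3.

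Cell cycle genes that p53 represses through p21 and the DREAM complex gave 5 rises and 0 falls of 40 by edgeR. That is 12.5% called, below the 31.7% of all tested genes, and 35 were not called. Their median log2 change was 0.06. DESeq2 and limma-voom called 0 falls as well, and 3 genes were lower at an unadjusted edgeR p under 0.05. CDC25A, a phosphatase that activates cyclin-dependent kinases, rose 1.51-fold, CKS2, a kinase subunit, 1.42-fold, CCNB1, the mitotic cyclin, 1.40-fold, and CDC20, an activator of the anaphase-promoting complex, 1.25-fold (edgeR adjusted p from 0.000298 to 0.00892). With upper-quartile scaling the list gave 4 rises and 3 falls. Its median log2 change was then 0.0018, against -0.058 over all tested genes. The list gave 10 calls without SCR library 1, 8 higher and 2 lower, and 3 without SCR library 2.

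Stress genes driven by ATF4, a factor that can also raise GADD45A, were measured beside these genes. Of 30 tested, 23 fell and 0 rose by edgeR, or 76.7% called against 31.7% of all tested genes. By DESeq2, by limma-voom or at an unadjusted edgeR p under 0.05, 0 rose. The median log2 change was -0.62. INHBE fell most, to 2.82 ± 1.06 CPM in KD, against 41.1 ± 15.96 CPM in SCR libraries, and CHAC1, DDIT4 and PCK2 were also lower (log2 changes of -2.82, -2.81 and -1.92, edgeR adjusted p from 1.51e-05 to 3.27e-05). GADD45A rose in the same libraries, as did PLK3, whose call was lost when any library was left out. The counts of GADD45G, which holds TGATGNAA as PLK3 does, were lower in KD libraries. The list was chosen with its earlier results known, so its count is not independent evidence, and its part in the changes of p53 targets was not tested.

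**Figure D4:**
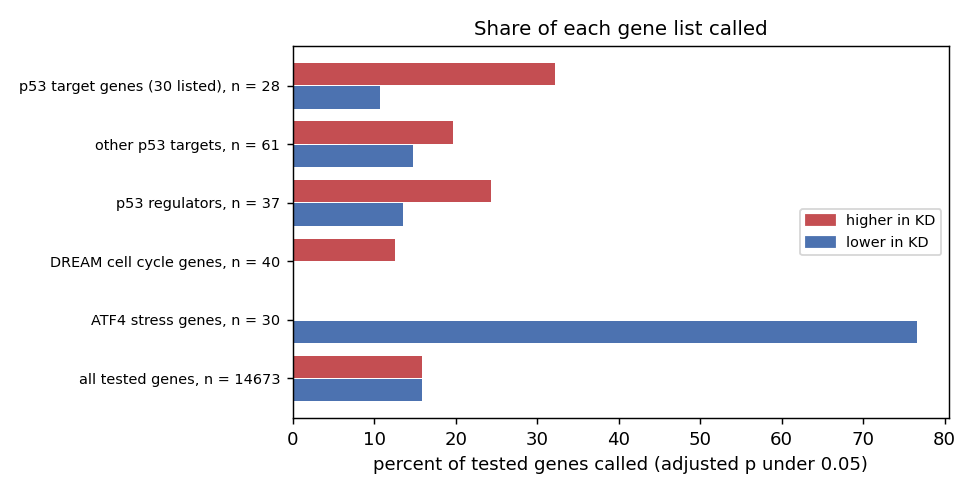
Percent of tested genes called higher (red) and lower (blue) in KD libraries at an adjusted p of 0.05, for the p53 target genes, 4 related lists and all 14673 tested genes. The p53 target genes have 9 higher and 3 lower calls of 28, the DREAM genes 5 higher and 0 lower of 40, and the ATF4 genes 23 lower and 0 higher of 30.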

How the data were processed

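The authors' tools were RSEM, STAR 2.7.9a and Trim Galore 0.6.4, with the build GRCh38.p13, as the submitters' processing notes list. The version of RSEM, the annotation and any use of strand were not given in the sources used here. Per the labels' protocols, RNA came from a miRNeasy Micro kit and went into TruSeq Stranded mRNA libraries. The deposited files hold whole numbers per gene, read as RSEM expected counts that the authors had rounded. RSEM divides reads among similar genes, so counts of paralogs are uncertain.

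The 44 pseudoautosomal Y copies were added to their X copies. Symbols were matched for 60463 of 60664 genes, and coordinates (1-based) and merged exon lengths come from GENCODE 29, for 58396 genes. KD and SCR libraries (3 each) were compared with edgeR 4.0.16 in R 4.3.3 by its quasi-likelihood F test, 2-sided, after filterByExpr and TMM scaling, with Benjamini-Hochberg adjustment over 14673 genes. Fold changes are KD over SCR. SE is the log2 change over the root of F, and intervals are the log2 change ± 1.96 SE, both approximate. CPM uses TMM-scaled library sizes, and RPKM divides it by exon length. Libraries within each group were no duplicates: chi-square per degree of freedom between them was 2.80 to 16.8.

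The genes and lists were chosen with earlier results of these data known. Named genes are the 30 members, CDKN1A and up to 4 called genes per list with the smallest adjusted p. Some genes that the rule names are not reported here. On simulated counts of 14451 genes the test recovered 81 of 100 genes changed 2-fold and 60 of 100 changed 1.5-fold. Of its 154 calls 13 were in unchanged genes, a share above the threshold of 0.05. The simulation changed a far smaller share of genes than the 31.7% called in the data, so these rates may not hold here. Alternatives were RLE and upper-quartile scaling, other filters, DESeq2 1.42.0, limma-voom (limma 3.58.1), a replicate block and leaving out each library. Figures were drawn with matplotlib 3.10.9.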

Additional observations from a re-analysis of the deposited data

How the results depend on the processing

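With each library left out in turn, 10 to 13 p53 target genes were called in place of 12, 9 to 24 other p53 targets in place of 21, 9 to 14 regulators in place of 14, 3 to 10 DREAM genes in place of 5, 18 to 25 ATF4 genes in place of 23 and 2704 to 5114 of all genes in place of 4657. Under the other scalings, filters and tools 11 to 13 p53 target genes were called. GADD45A, GADD45B, PLK2, CCNG2, AEN, TRIAP1, RPS27L, TP53INP1, FBXO22 and MDM2 passed under all 13 alternatives. PLK3 was lost under 10 (adjusted p = 0.093 with upper-quartile scaling, 0.077 with no filter, 0.0998 by DESeq2) and DDB2 under 6 (0.051 by DESeq2, 0.0506 by limma-voom). RRM2B passed with no filter (0.0442), by DESeq2 (0.0469) and without KD library 2 (0.0294), and POLH without KD library 2 (0.0322). GADD45G also entered the test with no filter (log2 change -1.86, adjusted p = 0.00149), on 3 to 6 KD counts, and with 1 library left out was called in 4 of 5 fits.

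Signs turned only in uncalled genes near 0. With upper-quartile scaling the log2 changes were -0.052 for MDM4, -0.047 for PPM1D, -0.034 for XPC and -0.0048 for TIGAR. With no filter MDM4 was at -0.0016, and with a filter of 1 CPM in 3 libraries MDM4 was at -0.0049 and PPM1D at -0.0017. With 1 library left out MDM4 ran from -0.12 to 0.16, PPM1D from -0.023 to 0.047, XPC from -0.012 to 0.053, TP53I3 from -0.18 to 0.045, ZMAT3 from -0.14 to 0.068 and FDXR from -0.012 to 0.16. The cause of these shifts was not tested.

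Deviations of same-numbered libraries were only weakly correlated across genes (0.031, 0.096 and -0.033), against -0.078 to 0.045 for the other KD and SCR pairs. These values cannot settle whether the libraries were prepared in pairs, and the main test was unpaired. A replicate block gave 11 called p53 target genes and 4742 genes in all, and PLK3 was not called (adjusted p = 0.0563). Depth limits GADD45G, SPATA18 and PERP most.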
